A study of Mus musculus with 11 samples.

Results

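The genes described here are Trib3 and 9 further genes of the integrated stress response: Atf4, Ddit3, Cebpb, Ppp1r15a, Chac1, Sesn2, Asns, Psat1 and Phgdh. Every array probe whose RefSeq accession belongs to one of these genes was taken, which gave 13 probes for the 10 genes, of 41174 probes for 17016 named genes in all. Expression was measured on single-colour Agilent mouse arrays, 1 array for each of 11 mouse fetuses of age E17.5-18.5, in adrenocortical cells sorted for enhanced green fluorescent protein. The groups were 4 Star-/- mice, all labelled male, and 7 Star+/+ mice, labelled 3 male and 4 female. The product of Star, the steroidogenic acute regulatory protein, delivers cholesterol to the inner mitochondrial membrane for steroid synthesis. Both genotypes carried the fluorescent marker used for the sort, while its promoter and the strain of the mice are not stated in the labels.

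The integrated stress response begins when a kinase that senses amino acid shortage, unfolded protein, haem lack or viral RNA phosphorylates the translation factor eIF2. General protein synthesis then slows, while translation of the transcription factor ATF4 rises. ATF4 and its partners switch on genes for amino acid supply, for feedback on the response itself and, under lasting stress, for cell death. Trib3 encodes a pseudokinase that is a target of ATF4 and of CHOP, the product of Ddit3, and that binds the kinase AKT and ATF4 itself.

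ATF4 with a C/EBP partner is known to bind a composite element, searched here as TGATGNAA on both strands of the RefSeq promoter windows of GRCm38.p6, which run from 250 bases before to 50 bases after each transcription start. A match was found for 3 of the 10 genes, Trib3, Asns and Chac1, against 4.51% of all 27025 genes in the table and 3.97% of its 32851 windows. The 3 matches are shown with their flanks because Trib3 and Asns, which both hold one, had very different values, given further on. Each is read 5′ to 3′ along the gene's own strand, with the match in capitals; in Trib3 and Chac1 the element lies on the opposite strand.
Trib3: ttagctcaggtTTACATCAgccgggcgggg
Asns: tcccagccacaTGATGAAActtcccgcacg
Chac1: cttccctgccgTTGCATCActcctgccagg
The Trib3 stretch is at chr2:152344028-152344057 on the minus strand, and its match covers bases 15 to 22 after the start. The Asns stretch is at chr6:7693214-7693243 on the minus strand, with the match from −23 to −16, and the Chac1 stretch at chr2:119351038-119351067 on the plus strand, with the match from −193 to −186. The element of endoplasmic reticulum stress, searched on both strands as CCAAT followed after any 9 bases by CCACG, was found in 0 of the 10 genes and in 0.119% of all windows. These matches describe letters in 1 window and say nothing about binding in these cells.

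The arrays lay on 3 slides. Slide 1 held 2 Star-/- and 2 Star+/+ arrays, slide 2 held 2 Star-/- arrays and 1 Star+/+ array, and slide 3 held 4 Star+/+ arrays, so with slide as a term the fitted difference rests on 4 against 3 arrays. Levels are log2 signals minus the array's 75th percentile, and a level belongs to its own probe. From 19071 to 26416 probes were well above background on an array, and precision is set by how few arrays there are. Star+/+ array 3, alone in its genotype on slide 2, was the dimmest, with a 75th percentile of 115, and correlated least with the others, at a median r of 0.877. That array was labelled female and both Star-/- arrays of slide 2 male, so within slide 2 genotype and sex cannot be told apart. On slide 1 all arrays were labelled male. The Star transcript itself averaged 2.37 in Star-/- and 5.75 in Star+/+ arrays, with a fitted difference of −4.70 ± 0.93 (SE; limma, adjusted p = 0.0565), and the genotypes' ranges just met, up to 3.27 in Star-/- and from 3.21 in Star+/+ arrays. The probe's place relative to the deleted part of the gene is not known here, so this is a limited check of the genotype labels. Of the markers of steroidogenic cells 9 were on the array, and 8 or 9 were well above background on every array of either genotype. All 9 had a negative difference in the fit, against 12014 of all 21107 genes tested, and the median was −1.28 against −0.16. Star itself is 1 of the 9. The median was −1.47 within slide 1 and −0.21 within slide 2, against −0.061 and −0.33 over all genes tested. Within slide 2 Cyp11a1, at 1.27, Nr5a1, at 0.11, and Scarb1, at 0.0070, were positive. In limma 0 passed, against 0.227% of all genes tested in that direction. At an unadjusted p under 0.05, 2 were lower, Hsd3b1 and the knocked-out gene Star, against 2114 of the 21107. The summed signal of the 9 markers was 151 to 510 times the 75th percentile in Star-/- arrays and 133 to 1630 times in Star+/+ arrays. On slides 1 and 2 the sums were 614, 1167 and 1630 in Star+/+ arrays 1 to 3. Star-/- arrays 1 to 4, on the same slides, gave 280, 510, 151 and 249. Star+/+ arrays 4 to 7, on slide 3, gave 1285, 160, 133 and 273.

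Trib3 stood far apart. Its brighter probe, A_51_P331570, read 2.72, 2.93, 2.61 and 3.20 in the 4 Star-/- arrays, and between −1.85 and −0.14 in the 7 Star+/+ arrays, with a median of −1.11. Every Star-/- array was higher than every Star+/+ array, and all 11 were well above background. The Star-/- values also lay close together, 2.86 ± 0.26, against −1.13 ± 0.66 in Star+/+ arrays (SD, n = 4 and 7). In the fit Trib3 was higher by 4.12 ± 0.48 in log2 units (SE; 95% interval 3.05 to 5.18), or 17.4-fold, with an adjusted p of 0.00769 in limma over all genes tested. Slide 1 on its own gave 3.69 and slide 2 gave 4.76. It ranked 19 by p among 21107 genes and unnamed probes tested. Without Star+/+ array 3 the difference was 3.69 and the adjusted p 0.124, and on that setting slide 2 no longer holds both genotypes. With each of the other 10 arrays left out in turn it passed.

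The dimmer Trib3 probe, A_52_P600274, moved the same way over a smaller span. It read −1.75, −1.84, −2.09 and −1.50 in Star-/- arrays and between −4.33 and −2.87, with a median of −3.48, in Star+/+ arrays. Again no Star+/+ array reached the lowest Star-/- array. Only 5 of the 7 Star+/+ arrays were well above background for it, and the fitted difference was 1.72 ± 0.41 (SE; limma over all probes, adjusted p = 0.0922), which did not pass. Both probes were thus higher in Star-/- arrays within each slide, by 1.17 and 2.53 for the dimmer one.

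Markers of macrophages moved with genotype in the same arrays. All 16 macrophage markers on the array were higher in the fit, 5 of them past an adjusted p of 0.05 in limma, and none overlapped between genotypes, against 0.602% and 4.10% of all genes tested in that direction. Their summed signal was 1013 to 2170 times the 75th percentile in Star-/- arrays and 52.7 to 352 times in Star+/+ arrays, and 16 of 16 were well above background in every Star-/- array against 12 to 15 in Star+/+ arrays. Spi1, a defining myeloid transcription factor, was not well above background in any Star+/+ array, Itgam in only 1 and Gpnmb in only 2. A tested gene had to be well above background on at least 4 arrays, which these genes reached only through the Star-/- arrays. They therefore add no separate support to the counts above, and Spi1 and Gpnmb are among the 5 that passed. The summed chromaffin markers were 5.02 to 146 times in Star-/- and 99.4 to 1970 times in Star+/+ arrays. Star+/+ arrays 1 to 3, on slides 1 and 2, gave 186, 455 and 280 times. The steroidogenic markers also had lower fitted values in Star-/-, as given above. Of 7 capsule and stroma markers 6 had a positive difference, with a median of 1.12, 0.99 within slide 1 and 1.02 within slide 2. The median was 0.57 over 5 endothelial and −0.65 over 4 erythroid markers. In limma 0 of these capsule, endothelial and erythroid markers passed. The part of these markers in the results for Trib3, Ddit3, Cebpa and the other genes was not tested, and in such sorted bulk samples more cells of a type and more RNA per cell cannot be told apart.

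In Star-/- arrays 1 to 4 the macrophage sums were 1258, 1172, 2170 and 1013, and the Trib3 levels 2.72, 2.93, 2.61 and 3.20. In Star+/+ arrays 1 to 7 the sums were 272, 258, 88.3, 52.7, 165, 352 and 198. Their Trib3 levels, in the same order, were −1.59, −0.14, −1.85, −0.97, −0.48, −1.11 and −1.78. Both measures were higher in every Star-/- array than in every Star+/+ array. How Trib3 relates to the sum within a genotype was not tested.

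**Figure D1:**
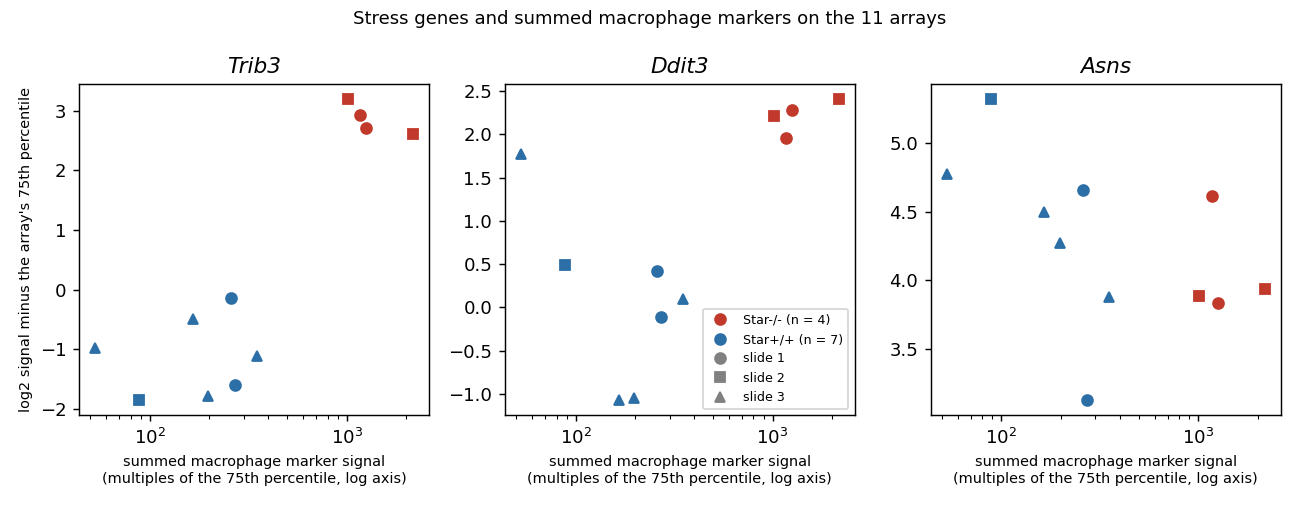
Levels of Trib3, Ddit3 and Asns (y axes, log2 signal minus the array's 75th percentile) against the summed signal of 16 macrophage markers (x axes, log scale, multiples of the 75th percentile) on the 11 arrays. The 4 Star-/- arrays lie apart at sums of 1013 to 2170, with high Trib3 and Ddit3 but with Asns inside the range of the Star+/+ arrays.

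Of the 10 genes, Trib3 was the only one past an adjusted p of 0.05 in limma. Over all genes tested 0.829% passed, 0.602% higher and 0.227% lower in Star-/-. Star-/- and Star+/+ arrays did not overlap for 3 of the 10, Trib3, Ddit3 and Ppp1r15a, all higher in Star-/-. Of all genes tested 7.32% did not overlap, and 4.10% were higher without overlap. At an unadjusted p under 0.05, 4 of the 10 were higher and 1 was lower, against 8.37% of all genes tested higher and 2114 of the 21107 lower. The difference was positive for 7 of the 10, against 43.1% of all genes tested. The median difference over the 10 was 1.40, against −0.16 over all genes tested. The 10 genes include Trib3 and were chosen with earlier results of these data known. The counts and the median therefore describe the list and add no separate support.

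**Figure D2:**
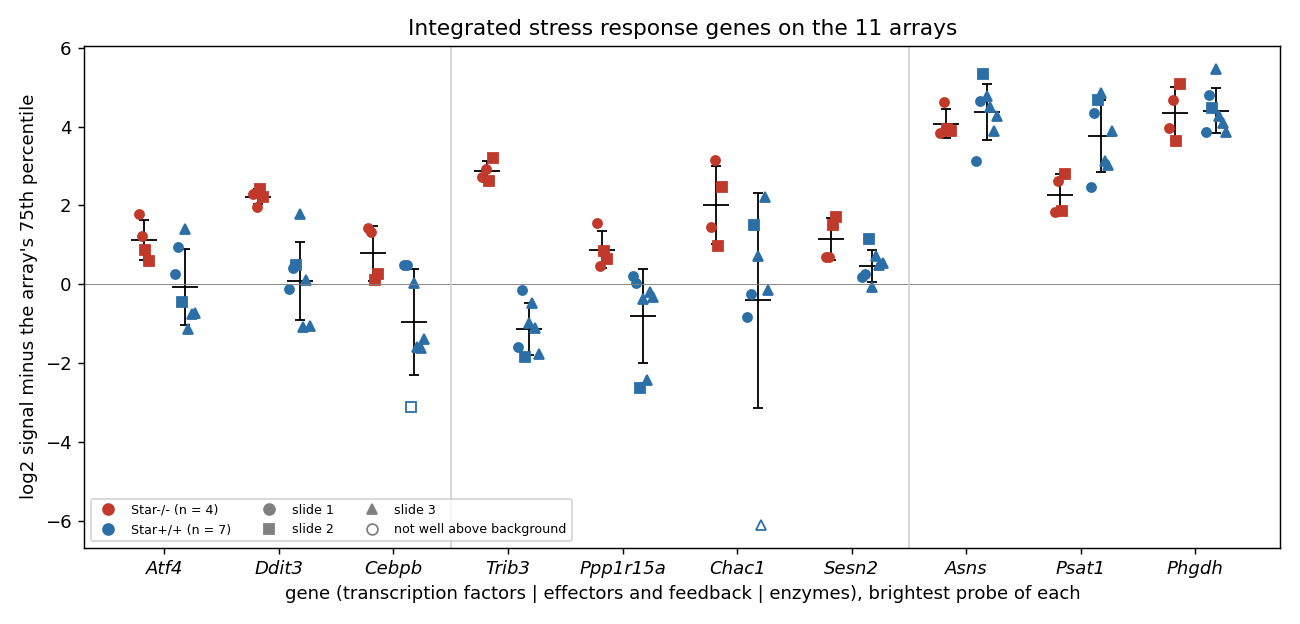
Level of the brightest probe of each gene (y axis, log2 signal minus the array's 75th percentile) on each of the 11 arrays, Star-/- left and Star+/+ right of each gene, with black bars for mean and SD (n = 4 and 7), shapes for slides and open symbols for signals not well above background. For Trib3 the 4 Star-/- arrays sit between 2.61 and 3.20, above all Star+/+ arrays, while for Asns the Star-/- arrays lie inside the Star+/+ range and for Phgdh the genotypes overlap.

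Among the transcription factors, Ddit3 had the clearest separation. It encodes CHOP, a C/EBP family member induced by ATF4 that takes part in stress-linked cell death. Its level was 2.28, 1.96, 2.41 and 2.22 in Star-/- arrays, and between −1.08 and 1.78 in Star+/+ arrays, with a median of 0.099. The genotypes did not overlap, and Star+/+ array 4 came nearest to the Star-/- range. The difference was 1.91 ± 0.64 (SE), 1.97 within slide 1 and 1.83 within slide 2, and missed the threshold (limma, adjusted p = 0.176; unadjusted 0.0143). With an array left out the adjusted p ran from 0.0388, without Star+/+ array 4, to 0.815, without Star+/+ array 3, with differences of 1.91 and 1.97.

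Atf4, the central transcription factor of the response, read 1.79, 1.22, 0.88 and 0.59 in Star-/- arrays, and between −1.13 and 1.41 in Star+/+ arrays, with a median of −0.46. Its ranges overlapped, with Star+/+ array 4 above 3 of the 4 Star-/- arrays. The difference of 1.02 ± 0.59 did not pass (limma, adjusted p = 0.383; 95% interval −0.30 to 2.33), and was 0.90 within slide 1 and 1.19 within slide 2. Because ATF4 is controlled largely through its translation, an array reads only part of its regulation.

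Cebpb, which encodes a C/EBP partner of ATF4 that also acts in inflammation, read 1.43, 1.33, 0.10 and 0.26 in Star-/- arrays and between −3.12 and 0.49 in Star+/+ arrays, with a median of −1.40. The lowest Star+/+ value was array 3, where the probe was not well above background. The difference of 1.86 ± 0.57 did not pass (limma, adjusted p = 0.148). It was 0.90 within slide 1 and 3.30 within slide 2 where that array is the Star+/+ side; without it the difference was 0.90.

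Among the effectors, Ppp1r15a separated the genotypes. It encodes GADD34, which brings a phosphatase to eIF2 and so ends the response. It read 1.54, 0.47, 0.85 and 0.65 in Star-/- arrays, and between −2.62 and 0.21 in Star+/+ arrays, with a median of −0.31. No Star+/+ array reached the Star-/- range, and Star+/+ arrays 3 and 5 were the lowest. The difference of 1.88 ± 0.68 did not pass (limma, adjusted p = 0.203), and was 0.89 within slide 1, also its value without Star+/+ array 3, and 3.37 within slide 2.

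Chac1, whose product degrades glutathione, was the most variable member. It read 1.45, 3.16, 0.98 and 2.46 in Star-/- arrays, and between −6.10 and 2.20 in Star+/+ arrays, with a median of −0.13. Star+/+ arrays 3 and 6 lay inside the Star-/- range, and the lowest value, array 5, was not well above background. The fitted difference of 1.79 ± 1.69 was close to its own standard error (limma, adjusted p = 0.595; 95% interval −1.98 to 5.56). It was 2.85 within slide 1, also its value without Star+/+ array 3, and 0.21 within slide 2, and it was 1.0995 without Star-/- array 2.

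Sesn2, a sestrin that restrains the growth kinase mTORC1 when leucine is scarce, read 0.68, 0.68, 1.51 and 1.70 in Star-/- arrays, and between −0.078 and 1.16 in Star+/+ arrays, with a median of 0.48. On slide 1 both Star-/- arrays were above both Star+/+ arrays, and so were both on slide 2 above the lone Star+/+ array. The difference was small and alike on both slides, 0.47 and 0.44, and the fitted 0.46 ± 0.31 did not pass (limma, adjusted p = 0.442).

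None of the 3 enzymes of amino acid synthesis passed in limma. Asns, asparagine synthetase, holds the composite element printed above and is a textbook ATF4 target. It read 3.84, 4.62, 3.94 and 3.89 in Star-/- arrays, and between 3.13 and 5.33 in Star+/+ arrays, with a median of 4.50. All 4 Star-/- values lay inside the Star+/+ range. The fitted difference was −0.36 ± 0.51 (limma, adjusted p = 0.732), with a 95% interval from −1.51 to 0.78 that leaves out a rise the size of that of Trib3. It was 0.33 within slide 1 and −1.41 within slide 2.

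Psat1, phosphoserine aminotransferase of serine synthesis, read 1.82, 2.62, 1.85 and 2.80 in Star-/- arrays, and between 2.46 and 4.85 in Star+/+ arrays, with a median of 3.89. Only Star+/+ array 1 lay within the Star-/- range. The difference of −1.65 ± 0.63 did not pass (limma, adjusted p = 0.217; unadjusted 0.0251), and was negative within slide 1, at −1.18, and within slide 2, at −2.36.

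Phgdh, phosphoglycerate dehydrogenase, catalyses the first step of serine synthesis and has 3 probes. The brightest read 3.96, 4.67, 3.62 and 5.07 in Star-/- arrays, and between 3.85 and 5.47 in Star+/+ arrays, with a median of 4.28. The genotypes overlapped, with a difference of −0.058 ± 0.52 (limma, adjusted p = 0.965; 95% interval −1.22 to 1.11). The second probe differed by −0.12 ± 0.54. The dimmest differed by 1.23 ± 0.77 (limma over all probes, adjusted p = 0.434), with −0.10 within slide 1 and 3.22 within slide 2, where Star+/+ array 3 was not well above background.

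**Figure D3:**
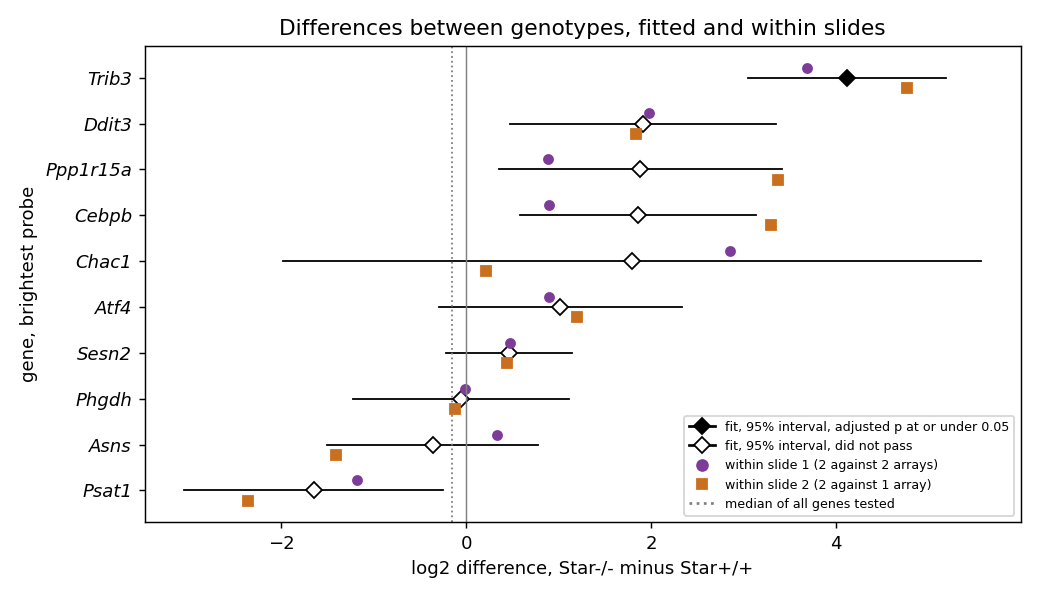
Difference between genotypes for each gene (x axis, log2, Star-/- minus Star+/+; diamonds with 95% intervals from the fit, filled where the adjusted p passed), with the difference within slide 1 (circles) and within slide 2 (squares) and a dotted line at the median of all genes tested, −0.16. Trib3 at 4.12 is the one filled diamond, Psat1 at −1.65 is the lowest, and the 2 slides lie farthest apart for Chac1, Ppp1r15a and Cebpb.

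A wider list, also chosen with earlier results of these data known, held 84 further pathway genes, of which 77 were tested. Over the whole list 1 gene passed in the higher direction and 0 in the lower (limma), against 0.602% and 0.227% of all genes tested. At an unadjusted p under 0.05, 15 were higher and 1 was lower, against 8.37% and 2114 of 21107 of all genes tested, and the median was 0.16 against −0.16 over all genes tested. The groups did not overlap for 7 of the 77, all higher in Star-/-, against 4.10% of all genes tested. The gene that passed was Aldh1l2, the mitochondrial formyltetrahydrofolate dehydrogenase, at −1.56 to 0.53 in Star-/- and −5.12 to −2.45 in Star+/+ arrays. It rose by 3.41 ± 0.65 (SE), at an adjusted p of 0.0499. It passed without Star+/+ array 4 (limma, adjusted p = 0.0412) but with none of the other 10 arrays left out, where the adjusted p ran up to 0.519, with a difference of 2.61, without Star+/+ array 3. It was well above background on 6 of the 7 Star+/+ arrays, and with normexp background correction its difference was 1.297 (limma, adjusted p = 0.206).

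The kinases of eIF2, the eIF2 and eIF2B subunits and the phosphatase had a median difference of −0.020 over 12 tested genes, of which 0 passed in limma and 0 had an unadjusted p under 0.05. The smallest p values belonged to Impact, an inhibitor of the amino acid sensor GCN2, at 0.60 ± 0.33, to Ppp1r15b, the constitutive counterpart of Ppp1r15a, at −0.66 ± 0.62, and to Dnajc3, an inhibitor of eIF2 kinases, at 0.31 ± 0.38.

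The other transcription factors had the highest median of the groups, 1.68 over 11 tested genes, 0.47 within slide 1 and 3.59 within slide 2. Of the 11, 10 had a positive difference, against 43.1% of all genes tested, and 4 were higher at an unadjusted p under 0.05, against 8.37%; 0 passed in limma over all genes. Cebpa, a C/EBP factor of fat, liver and myeloid cells, was between 0.094 and 1.68 in Star-/- and between −5.32 and −1.42 in Star+/+ arrays, with a difference of 3.83 ± 0.81 (limma, adjusted p = 0.0699). Nupr1, a stress-induced chromatin protein, differed by 2.04 ± 0.54, and Atf5, an ATF4 relative, by 2.42 ± 0.72, with Star+/+ array values for Atf5 from 0.74 to 6.51 around the Star-/- range of 5.25 to 5.63. Without Star+/+ array 3 these differences were 2.02 for Cebpa, 1.002 for Nupr1 and 0.88 for Atf5.

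Of the stress effectors 0 of 19 tested passed in limma, while 7 were higher at an unadjusted p under 0.05, against 8.37% of all genes tested, and the median was 0.40, 0.90 within slide 1 and 0.15 within slide 2. Gdf15, a secreted stress cytokine, was between 4.83 and 6.14 in Star-/- arrays and between −2.23 and 3.09 in Star+/+ arrays. Its difference of 4.68 ± 0.92 did not pass (limma, adjusted p = 0.0544). It passed without Star+/+ arrays 4, 5 or 6, at 0.0438, 0.0306 and 0.0475, and without Star+/+ array 3 the difference was 3.53 and the adjusted p 0.585. Bbc3, the death gene PUMA, differed by 2.44 ± 0.57 and Gadd45a, a growth arrest gene, by 1.95 ± 0.49 (limma, adjusted p = 0.0851 and 0.0978). Gadd45a differed by 2.82 within slide 1 but by 0.64 within slide 2. Bbc3 was at 2.80 to 3.18 in Star-/- arrays, inside the Star+/+ range of 0.15 to 4.39. Its Star+/+ mean was 2.18 over 7 arrays and 0.63 over those of slides 1 and 2. Within slide 1 Bbc3 differed by 2.28 and within slide 2 by 2.67. With no slide term its difference was 0.81 (limma, adjusted p = 0.660), and with an array left out its adjusted p ran from 0.0112, without Star+/+ array 4, to 0.630, without Star+/+ array 3. Of the relatives of Trib3, Trib1 was at 0.63 to 1.39 in Star-/- and −2.62 to 0.39 in Star+/+ arrays, with a difference of 1.77 ± 0.66 (limma, adjusted p = 0.214), and Trib2 differed by −0.011 ± 0.54; both relatives were picked for description after their values were seen.

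Of 13 tested enzymes of amino acid and folate metabolism, Aldh1l2 included, 4 had a positive and 9 a negative difference, where 12014 of all 21107 genes tested were negative, and the median was −0.55. Bcat1, which transaminates branched-chain amino acids, differed by 1.62 ± 0.39 (limma, adjusted p = 0.0899) and Aldh18a1, of proline synthesis, by −1.52 ± 0.66 (limma, adjusted p = 0.265). The genotypes overlapped for Bcat1, at 1.39 to 2.86 in Star-/- and −0.47 to 2.22 in Star+/+ arrays. Its Star+/+ mean was 1.08 over 7 arrays and 0.25 over those of slides 1 and 2. Within slide 1 Bcat1 differed by 1.75 and within slide 2 by 1.43. Its difference was 0.91 as the mean of its probes and 0.97 with no slide term (limma, adjusted p = 0.245 and 0.390). It passed under 3 of 28 alternatives. For the amino acid transporters the median was 0.58 over 9 tested, against −0.16 over all genes tested. In limma 0 passed, while 2 were higher at an unadjusted p under 0.05, against 8.37% of all genes tested. Slc7a11, the cystine importer, differed by 2.32 ± 0.66 and Slc7a3, an importer of cationic amino acids, by 1.60 ± 0.54, while Slc7a1, another such importer, differed by −0.65 ± 0.45. For Slc7a11 only 3 of the 7 Star+/+ arrays were well above background, and with normexp background correction its difference was 0.58 (limma, adjusted p = 0.593).

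The tRNA synthetases and the tRNA exporter, also ATF4 targets, had a median of −0.24 over 13 tested; 0 passed in limma and 0 had an unadjusted p under 0.05. Their smallest p values were those of Tars at −0.65 ± 0.32, Nars at 0.59 ± 0.39 and Xpot at −0.51 ± 0.37. Among chaperones of the endoplasmic reticulum and Xbp1, 0 of 7 passed in limma, and the median was 0.66 against −0.16 over all genes tested. Of the 7, 2 were higher at an unadjusted p under 0.05, against 8.37% of all genes tested. Dnajb9, a co-chaperone, differed by 1.50 ± 0.37 and Hspa5, the master chaperone BiP, by 0.74 ± 0.33. Xbp1 differed by 1.68 ± 0.81, with 0.094 within slide 1 and 4.05 within slide 2. Calr differed by 0.66 ± 0.38 and Sdf2l1 by 0.52 ± 0.48. Hsp90b1, at −0.77 ± 0.40, and Pdia4, at −0.56 ± 0.72, went the other way. As the mean of its probes Dnajb9 differed by 1.14 ± 0.67 (limma, adjusted p = 0.406).

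**Figure D4:**
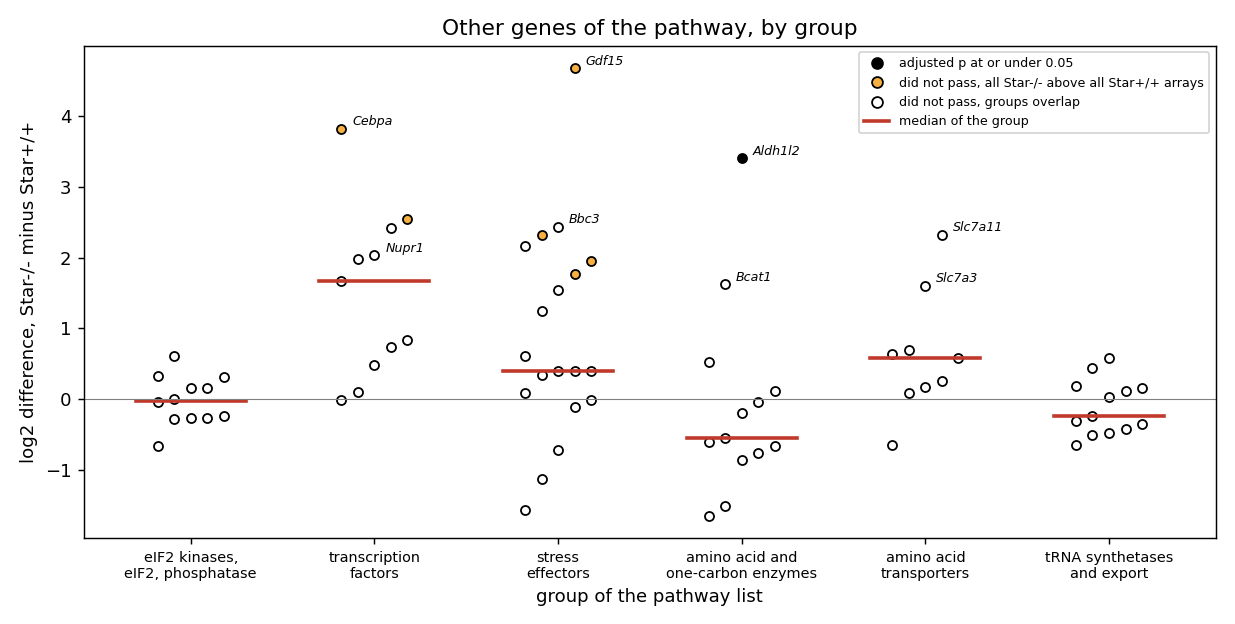
Difference between genotypes (y axis, log2, Star-/- minus Star+/+) for each tested gene of the wider pathway list, by group (x axis), with red lines for group medians, a black point for Aldh1l2, the gene past the threshold, and orange points where all Star-/- arrays lay above all Star+/+ arrays. Transcription factors have the highest median, 1.68, and amino acid and folate enzymes the lowest, −0.55.

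Named, non-predicted genes were ranked by Pearson's r with Trib3 over the 11 arrays, with the 10 members left out beforehand. The 8 highest were not on the wider pathway list. Slc66a1, which exports cationic amino acids from lysosomes, had an r of 0.981, and so did Gnptg, a subunit of the enzyme that tags lysosomal hydrolases. The vesicular GABA transporter Slc32a1 followed with 0.975, then Pltp, the phospholipid transfer protein, and Uap1l1 with 0.955 each, the kinase gene Matk with 0.955, the lysosomal acid phosphatase Acp2 with 0.954 and the carbonic anhydrase Car6 with 0.953. Slc32a1 was well above background on 1 and Car6 on 0 of the 7 Star+/+ arrays, so both were tested only through the Star-/- arrays, where they were high. These 11 points share the genotype difference. Over the 7 Star+/+ arrays alone r was 0.859 for Slc66a1, 0.767 for Uap1l1, 0.765 for Gnptg, 0.686 for Acp2 and 0.644 for Slc32a1. It was 0.465 for Matk, 0.283 for Pltp and −0.123 for Car6. The other members of the pathway had an r with Trib3 over the 11 arrays between −0.656, for Psat1, and 0.799, for Ddit3. Within the 7 Star+/+ arrays their r was between −0.436, for Chac1, and 0.455, for Phgdh, and that of Ddit3 was 0.097.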

How the data were processed

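Cells were sorted by fluorescence, and the RNA of every mouse went through a linear amplification before Cy3 labelling, per the labels' protocols. Per the file headers, the deposited intensity values are spot signals from which Agilent Feature Extraction had already subtracted background, in version 10.1.1.1 on slides 1 and 2 and 10.5.1.1 on slide 3; the second is the one in the submitters' processing notes. A deposited table of log2 values served as an alternative. On every array at least 99.78% of its probes lay within 0.01 of the log2 signal less the 75th percentile. Before this count each probe was centred, and each array's median offset from the deposited values was taken out. The deposited flags, other values of 0 or 1, mark outlier spots (77 to 164 per array, left out) and spots well above background.

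Log2 signals were averaged per probe and the 75th percentile of the array was subtracted. Probe accessions were matched to RefSeq of GRCm38.p6. The brightest probe stood for a gene, and genes whose brightest probe stood well above background on under 4 arrays were not tested; all 10 members passed, and none had a missing value. The test was two-sided, with limma 3.58.1 in R 4.3.3 (lmFit, eBayes; terms for genotype and slide; residual degrees of freedom 7), Benjamini-Hochberg adjustment over all 21107 genes and unnamed probes and a threshold of 0.05. It was tested on simulated data first. Labels give each array a mouse of its own. Slide came from the array identity.

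Members and lists were chosen with earlier results of these data known. Named were all members, list genes past the threshold or with the 3 smallest p of their group, and the listed chaperones with Xbp1. So were the 8 genes with the highest r with Trib3 among genes that had a non-predicted name and were not members. Trib1 and Trib2 were added after their values were seen. Alternatives concerned slide, sex, replicate number, background (normexp, offset 50, on median spot signals), scaling, filters, probes, weights, prior, outlier spots and each array left out. Replicate numbers did not pair the arrays: deviations of same-numbered arrays correlated at −0.0059 for number 3 and at 0.184 to 0.217 for the others. Also used were statmod 1.5.0 and, in Python 3.11.15, pandas 2.3.3, numpy 2.4.6 and matplotlib 3.10.9.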

Additional observations from a re-analysis of the deposited data

Results flagged for a closer look

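In 3 of 26 sets of values, a probe in 1 genotype, a single array stood far from the rest by Dixon's test at 95%; chance alone gives about 1 in 20 such sets. Chac1 was at −6.10 in Star+/+ array 5, where it was not well above background, against −0.82 in the nearest Star+/+ array. The dimmest Phgdh probe was at −3.27 in Star+/+ array 3, also not well above background, against −0.72 in the nearest. Asns was at 4.62 in Star-/- array 2, against 3.94 in the nearest Star-/- array, and was well above background there.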

How the results depend on the processing

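In limma Trib3 kept its direction under all 28 alternatives, between 2.92 and 4.76, and passed under 25 of them, with adjusted p from 0.000154 to 0.124. It did not pass within slide 1 alone (3.69) or slide 2 alone (4.76), where 0 genes passed at all (3929 and 7622 at an unadjusted p under 0.05), nor without Star+/+ array 3; with an array left out it ran from 3.69 to 4.59. The count of members past the threshold was 2 with no slide term and with normexp, 3 with array weights, 0 within either slide, and 0 to 2 with an array left out. The count over all genes was 175, and was 604 with no slide term, 474 with slide as a random block, 27 with sex as a further term, 630 with normexp, 93 with median scaling, 402 over genes above background on all 11 arrays, 1968 with array weights, 0 within either slide and 10 to 561 with an array left out. The count over the wider pathway list was 1, and was 5 with no slide term, 4 with a random block, 10 with normexp, 4 above background on all arrays, 14 with array weights, 2 with quantile scaling and with the trend and robust prior, 0 within either slide, with sex, with median scaling, in the authors' series table, with no filter and with every probe separately, and 0 to 4 with an array left out. With the replicate number as a block, 186 genes passed, Trib3 among them at 4.004 (adjusted p = 0.0240), and 2 of the pathway list. Asns was at 0.33 within slide 1 and ran from −0.92 to 0.33 with an array left out. Phgdh was at 0.15 with sex, 0.12 with normexp, 0.11 with quantile scaling, 0.35 as the mean of its probes, and −0.30 to 0.19 with an array left out. Ppp1r15b was at 0.31 within slide 1, at 0.34 with array weights and at −1.14 to 0.31 with an array left out. Slc7a1 was at 0.040 with no slide term, Tars at 0.11 as the mean of its probes, and, within slide 2, Dnajc3 at −0.40 and Nars at −0.13. The cause of these changes was not tested. Normexp moved the median over all genes to −0.29. Members not well above background on every array, Chac1 and Cebpb, have no value in the fit over genes above background on all 11.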
